A study of Xenopus laevis with 40 samples.

Results

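The genes described here code for the extracellular and membrane layer of Wnt signalling: Wnt ligands, Frizzled receptors, the co-receptors Lrp5 and Lrp6, secreted antagonists (Frzb, Sfrp and Dkk proteins), R-spondins, and the target genes axin2, sp5 and sp5l. Members were taken by symbol from the deposited table that pairs gene IDs with names, and 70 IDs carried such a symbol. Of these, 59 had at least 10 counts in at least 2 of the 40 libraries and were kept, out of 51017 gene IDs in all. They comprise 21 ligand copies, 17 receptor copies, 2 co-receptor copies, 12 antagonist copies, 3 R-spondin copies and 4 target copies. Xenopus laevis, the African clawed frog, is allotetraploid, so many genes exist as a copy on a long (.L) and a copy on a short (.S) chromosome. The 59 copies belong to 43 genes, of which 16 had both copies. The 11 IDs left out by the count rule were rspo2.S, frzb2.L, lrp6.S, wnt1.L, wnt2.L, wnt3.L, wnt3.S, wnt7c.L, wnt8a.S, wnt8b.S and sp5.S.

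Wnt ligands are secreted lipid-modified proteins that bind Frizzled receptors on receiving cells. Together with Lrp5 or Lrp6 they stabilise β-catenin, which enters the nucleus and, with Tcf and Lef factors, switches on targets such as axin2 and the sp5 family. Other Frizzled signals, often started by Wnt5 and Wnt11 ligands through Ror and Ryk co-receptors, act on cell polarity and movement without β-catenin. Sfrp and Frzb proteins bind the ligands, some Dkk proteins, such as Dkk1, block Lrp5 and Lrp6, and R-spondins raise the amount of receptor at the cell surface. In the frog embryonic epidermis, a mucociliary epithelium, Notch and Wnt signals are both known to act on how multiciliated cells, ionocytes and basal cells are set aside.

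The study sequenced poly-A RNA from animal cap explants, pieces of prospective ectoderm cut at stage 8 that develop into mucociliary epidermis in culture. Explants of 4 injected groups and of uninjected wild-type embryos were collected at stages st10.5, st16, st25 and st32, in 2 experiments that used different females and fertilizations, so each of the 20 groups has 2 libraries. The injected agents, given into the animal side at 4 sites, were nicd mRNA (120 ng/µl), which codes for the Notch intracellular domain and activates the pathway; suh-dbm together with dnmcidas mRNA (100 ng/µl each), which block Notch output and multicilin, the inducer of multiciliated cells; suh-dbm mRNA alone (100 ng/µl); and a foxa1 morpholino (3 pmol) against the start codon of a factor of small secretory cells. The uninjected explants of each stage served as the control of all 4 injected groups, so comparisons made against them are not independent. Nothing but the injection separates the groups of a stage in the labels, and no group received a control injection according to them.

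Libraries of injected explants held 20.2 to 60.8 M gene counts and those of uninjected ones 25.9 to 99.4 M. Reads of the injected mRNAs were seen where the labels place them. The notch1 copy reached 18802 and 9964 CPM (counts scaled to library size) in nicd explants at st10.5, against 135 and 142 CPM in uninjected ones, and still 94.9 and 379 CPM against 11.8 and 11.4 CPM at st32. The rbpj copies, the gene behind suh-dbm, stood at 37758 and 41119 CPM in suh-dbm explants at st10.5 and at 17.8 and 145 CPM at st32, against 13.1 and 21.4 CPM in uninjected explants of st32. A morpholino blocks translation, so foxa1 transcript levels do not check it. Multiciliated markers (13 copies, the injected mcidas left out) summed to 583 to 878 CPM in uninjected explants of st16 to st32, and ionocyte markers (13 copies) to 643 to 2108 CPM, so markers of both these cell types were present. Levels below are CPM, counts divided by the library total. They are not corrected for gene length, so they are compared between libraries and not between genes. In bulk RNA, fewer cells of a type and less RNA per cell cannot be told apart.

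In uninjected explants the largest turnover of these genes lay between st10.5 and st16, as did that of all genes tested. Of the 58 members tested, 30 (51.7%) differed between these stages at an adjusted p under 0.05 in edgeR's quasi-likelihood test with Benjamini-Hochberg adjustment, 16 higher and 14 lower at st16, against 44.8% of the 31648 genes tested. Between st16 and st25, 18 members (31%) differed, 11 higher and 7 lower at st25, against 21.9% of all genes. Between st25 and st32 only wnt11b.L did (1.72%, against 1.44% of all genes). The shares of the first and last steps lay near those of all genes. The member without a test, frzb-1, stayed at or below 0.154 CPM in the uninjected libraries and did not pass the filter on low counts.

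Among the ligands, wnt6.L and wnt10a.L rose with age, and wnt11b.L had no count at st32. The level of wnt6.L in uninjected explants of experiments 1 and 2 was 0 and 0.0979 CPM at st10.5, 0.292 and 0.84 CPM at st16, 5.46 and 6.84 CPM at st25, and 7.71 and 9.03 CPM at st32. Every library of st25 and st32 lay above every earlier one, and both of the first steps passed the test (log2 fold changes 3.93 ± 0.85 and 3.40 ± 0.68 SE, adjusted p = 0.00071 and 0.00108). The ligand wnt10a.L was at or below 0.0876 CPM up to st16 and then at 1.02 and 1.48 CPM at st25 (log2 fold change 5.24 ± 1.35 SE, adjusted p = 0.00658) and at 13.9 and 5.68 CPM at st32. The last step of wnt10a.L did not pass (adjusted p = 0.187). The ligand wnt11b.L, which in Xenopus drives convergent extension movements, had 8.04 and 8.78 CPM at st10.5, 39.8 and 9.89 CPM at st16, 1.73 and 0.867 CPM at st25, and no count at st32. Its st16 libraries lay far apart, that of experiment 2 close to st10.5, and the rise to st16 (log2 fold change 2.00 ± 0.78 SE, adjusted p = 0.0425) was lost when any of 3 of its 4 libraries was left out, the exception being st16 experiment 2. The fall to st25 held in each of those refits (log2 fold change -4.38 ± 0.87 SE, adjusted p = 0.000988).

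Opposite patterns were seen among the receptors. The copies of fzd7, a receptor of early Xenopus development, were high at st10.5 and fell: fzd7.L had 373 and 262 CPM at st10.5, 9.1 and 12.2 CPM at st16, 2.93 and 4.93 CPM at st25, and 4.18 and 4.83 CPM at st32. Its first step had the smallest adjusted p among the members (log2 fold change -4.53 ± 0.46 SE, adjusted p = 3.9e-08), and no library of a later stage came near those of st10.5. The fzd7.S copy fell at both steps as well (log2 fold changes -3.01 ± 0.67 and -3.39 ± 0.71 SE, adjusted p = 0.000706 and 0.00115). Both copies of fzd6, fzd8 and fzd10 rose between st10.5 and st16. The level of fzd10.S, for example, was 0.631 and 4.26 CPM at st10.5 and 72.2 and 44.3 CPM at st16 (adjusted p = 9.0e-05). Of these, fzd6.S alone fell again at st25, to 1.9 and 1.6 CPM against 20.5 and 21.1 CPM at st16 (log2 fold change -3.66 ± 0.40 SE, adjusted p = 1.6e-06), while the step of fzd6.L did not pass (adjusted p = 0.475). In all, 8 of 17 receptor copies rose and 4 fell at the first step. Among all genes, 22.2% were called higher and 22.6% lower there.

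The co-receptors moved in opposite directions between st10.5 and st16. The lrp6.L copy had 98.2 and 62.6 CPM at st10.5 and 8.16 and 11.5 CPM at st16, and lrp5.L had 9.2 and 6.87 CPM and then 19.2 and 20.5 CPM. Both differences passed with every library left out in turn (log2 fold changes -2.67 ± 0.41 and 1.68 ± 0.25 SE, adjusted p = 1.1e-05 and 5.5e-06).

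Of the 11 antagonist copies tested, 2 were higher and 4 lower at st16 than at st10.5, where 22.2% of all genes were called higher and 22.6% lower. At st25, 5 were higher than at st16, where 3316 of the 31648 genes were called higher. The sfrp2.S copy had 88.2 and 109 CPM at st10.5, 18.3 and 21.9 CPM at st16, 420 and 218 CPM at st25, and 501 and 258 CPM at st32. It was lowest at st16, with no overlap with any other stage, and the step to st25 passed in every refit (log2 fold change 3.92 ± 0.81 SE, adjusted p = 0.00112). The sfrp5.S copy was at 0.523 and 0.943 CPM at st16 and at 12.4 and 11.8 CPM at st25 (log2 fold change 3.98 ± 0.99 SE, adjusted p = 0.0049). The dkk1.S copy had 0.315 and 0.587 CPM at st10.5, 3.64 and 2.02 CPM at st16, 14.7 and 27.8 CPM at st25, and 4.14 and 1.39 CPM at st32, and its first 2 steps passed (adjusted p = 0.0101 and 0.0263). R-spondin copies stayed at or below 1.42 CPM in all uninjected libraries.

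The target genes did not follow one course. The sp5l.L copy, a transcription factor gene of the Sp family, had 189 and 56.9 CPM at st10.5 and 0.906 and 0.686 CPM at st16 (log2 fold change -6.86 ± 1.09 SE, adjusted p = 1.7e-05). The sp5l.S copy fell with it (log2 fold change -8.28 ± 1.10 SE, adjusted p = 6.6e-06), and stayed at or below 0.154 CPM from st16 on. The sp5.L copy had 0.403 and 1.52 CPM at st10.5 and 0.0805 and 0 CPM at st16 (log2 fold change -3.93 ± 1.58 SE, adjusted p = 0.049). DESeq2 did not call this fall of sp5.L. The axin2.S copy, a feedback inhibitor of β-catenin signalling, was highest at st25, with 0.42 and 0.489 CPM at st10.5, 1.59 and 1.54 CPM at st16, 4.45 and 8.53 CPM at st25, and 0.664 and 0.772 CPM at st32. None of its steps passed (adjusted p = 0.0925, 0.177 and 0.131). Many calls of the stage steps were lost when 1 library was left out. Each such refit leaves 1 library in a group, so a lost call does not show that the library left out decided it. At the first step 16 and 25 calls remained without st10.5 experiment 1 or 2, and 19 and 20 without st16 experiment 1 or 2. At the second step 7 and 12 remained without st16 experiment 1 or 2, and 15 and 11 without st25 experiment 1 or 2. The wnt11b.L call of the last step (adjusted p = 0.0103) remained only without st25 experiment 2. With 150 counts at st25 and none at st32, wnt11b.L was at least 36.2-fold lower at st32, the floor being 3 counts over the group. The authors' deposited table listed 18 members higher and 14 lower at st16 than at st10.5 (62.7% of members with an adjusted p, against 42.9% of genes). The authors' deposited table of the second step listed 12 higher and 8 lower (43.5%, against 32.5%), and the authors' deposited table of the last step 3 higher and 7 lower (25.6%, against 13.3%). With a term for the experiment at each stage, added after seeing the data, the last step had 12 members called, 2 higher and 10 lower, against 1 without it.

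**Figure D1:**
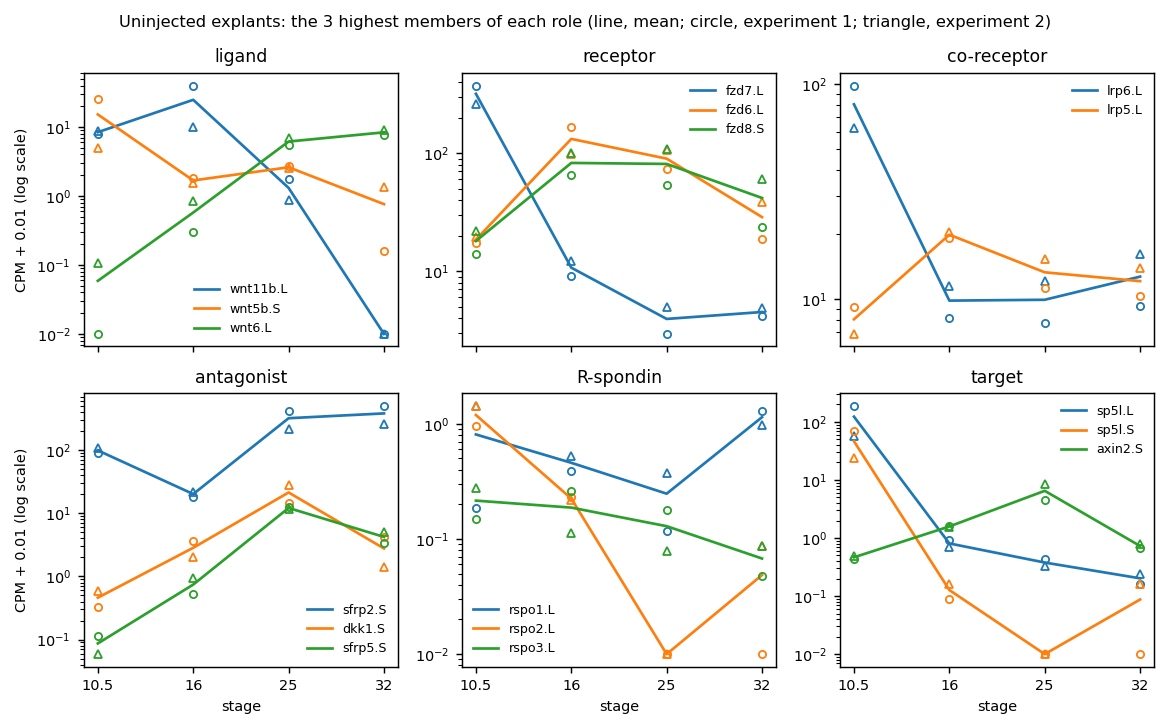
Level of the members with the 3 highest mean levels in each role (2 for the co-receptors) in uninjected explants by stage, as CPM plus 0.01 on a log axis, with circles for experiment 1, triangles for experiment 2 and lines through the means. The plot shows fzd7.L, lrp6.L and the sp5l copies falling after st10.5, where fzd7.L stood at 373 and 262 CPM, and wnt6.L, sfrp5.S and dkk1.S rising up to st25.

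Activation of Notch by nicd gave the largest number of calls against uninjected explants. No member was called at st10.5, where 0.0537% of all genes were, 0.0411% as higher (edgeR's quasi-likelihood test; 3 members had an unadjusted p under 0.05, and DESeq2 called none). At st16, 8 of 58 members were called (13.8%, against 9.93% of all genes), 6 higher (10.3%, against 2.71%) and 2 lower (3.45%, against 7.22%). At st25, 8 were called (13.8%, against 12.3%), all higher, where 5.21% of all genes were called higher and 7.1% lower. At st32, 7 were called (12.1%, against 5.83%), all higher, where 1.78% of all genes were called higher and 4.05% lower. Of these 7, wnt11.L met the count rule for members only with nicd libraries counted. The shares called in either direction at st16 and st25 lay near those of all genes, and the shares called higher lay above them at all 3 stages. The median log2 fold change of the 58 members was 0.06, 0.90 and 1.00 at these stages, and that of all genes was 0.01, 0.00 and 0.00. With members at 0 counts in a group set to their bound, and those at or under 3 counts in both groups left out, it was 0.29, 1.04 and 0.95.

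The samples paired by experiment, and a term for the experiment raised the calls at st25 and st32: 16 (13 higher, 3 lower) and 12 (all higher), with 9 at st16. With that term fitted at each stage separately, an alternative added after seeing the data, the counts were 1 at st10.5 (fzd8.L, lower) and 17, 25 and 20 at st16, st25 and st32. No call was lost with either term. The authors' deposited tables listed 10 members higher and 5 lower at st16 (34.9% of members with an adjusted p, against 11.9% of genes), 16 and 3 at st25 (38%, against 19%), and 13 and 3 at st32 (34.8%, against 12.2%).

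Cell type markers moved in the same libraries. In nicd explants the multiciliated markers summed to 26.2 and 42 CPM at st16, against 774 and 877 CPM in uninjected ones, and 12 of 13 copies were lower. The ionocyte markers summed to 67 and 115 CPM at st25, against 1318 and 1769 CPM, with 11 of 13 copies lower. Cement and hatching gland markers summed to 1939 and 1812 CPM, against 241 and 341 CPM, with 4 of 4 tested copies higher. Neural markers (12 copies) summed to 296 to 499 CPM in the 6 nicd libraries of st16 to st32, against 38.3 to 160 CPM in uninjected ones, with 1 copy higher at each of these stages (ncam1.S) and 1 lower at st16 and st25 (elavl3.L). Mesoderm and muscle markers (11 copies, of which myf5.L, myf5.S and mespb.S had no count in any of these nicd libraries) summed to 2.32, 61.6 and 37.9 CPM in nicd experiment 1 at st16, st25 and st32 and to 137, 203 and 166 CPM in nicd experiment 2. In uninjected libraries of these stages they summed to 0.906 to 19.8 CPM. The part of these marker differences in the nicd results was not tested.

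Both copies of fzd7 rose in nicd explants. At st16 fzd7.L had 73.5 and 88.7 CPM in nicd explants, against 9.1 and 12.2 CPM in uninjected ones, and fzd7.S had 111 and 81.9 CPM, against 6.71 and 9.77 CPM. No nicd library overlapped an uninjected one. The log2 fold changes were 2.88 ± 0.43 and 3.52 ± 0.68 SE, with adjusted p = 5.1e-05 and 0.00092. At st25 fzd7.S had 20.1 and 11.3 CPM in nicd explants, against 0.71 and 0.958 CPM in uninjected ones (log2 fold change 4.26 ± 0.73 SE, adjusted p = 0.000189), and fzd7.L was called as well (log2 fold change 1.85 ± 0.42 SE, adjusted p = 0.00318). At st32 fzd7.S had 5.72 and 4.43 CPM in nicd explants, against 0.38 and 1.62 CPM (log2 fold change 2.43 ± 0.70 SE, adjusted p = 0.038). In nicd explants too the fzd7 levels went down with age. The fzd6.S copy was called higher at st25 only, at 4.39 and 5.06 CPM in nicd explants, against 1.9 and 1.6 CPM (log2 fold change 1.43 ± 0.37 SE, adjusted p = 0.0106). Its levels were also above those uninjected libraries in the other injected groups of st25.

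The fzd10.L receptor copy fell at st16, to 1.79 and 9.94 CPM in nicd explants, against 22.7 and 26.4 CPM in uninjected ones (log2 fold change -2.16 ± 0.56 SE, adjusted p = 0.013). The nicd library of experiment 2 was the nearer to the uninjected ones. For fzd10.S the levels were 11.9 and 23.3 CPM, against 72.2 and 44.3 CPM, and the difference did not pass (adjusted p = 0.172). The fzd8.S copy had 208 and 229 CPM in nicd explants of st16, against 65 and 100 CPM, without overlap. It was not called (log2 fold change 1.37 ± 0.65 SE, adjusted p = 0.221) but passed with the experiment as a term (adjusted p = 0.00413). At st25 and st32 the same held for fzd8.S (adjusted p = 0.00332 and 0.0166 with the term) and fzd8.L (0.0231 and 0.026), and fzd6.L at st25 (0.0341) and fzd4.L at st32 (0.0236) also passed with the term and not without it. At st25 the term further added rspo3.L (0.0461) and wnt7a.S (0.036), both higher with nicd, and wnt10a.L (0.0332), wnt10b.S (0.0317) and wnt5b.S (0.0409), all lower. The wnt7a.S copy reached 10 counts in nicd libraries only. It thus met the count rule for members through them, and its rise is no separate support.

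Of the 21 ligand copies, nicd explants had 1 higher and 1 lower at st16, 4 higher at st25 and 5 higher at st32. Among all genes, 2.71%, 5.21% and 1.78% were called higher at these stages, and 7.22%, 7.1% and 4.05% lower. The wnt4.S ligand had 3.92 and 7.66 CPM in nicd explants of st25, against 0.587 and 0.981 CPM in uninjected ones, and 20.8 and 14.6 CPM, against 0.74 and 1 CPM, at st32. The groups did not overlap at either stage (log2 fold changes 2.89 ± 0.85 and 4.34 ± 0.91 SE, adjusted p = 0.0255 and 0.00258). The wnt5a.L ligand, which signals mainly without β-catenin, had 12.8 and 32.5 CPM in nicd explants of st25, against 0.0309 and 0.593 CPM, and 80.5 and 24.1 CPM at st32, against 0.494 and 0.0772 CPM. Both differences passed (log2 fold changes 6.25 ± 1.90 and 7.35 ± 1.99 SE, adjusted p = 0.03 and 0.0239), although the nicd libraries of each stage lay far apart. The wnt5a.S copy was called at the same stages. At st25 it had 4.42 and 6.63 CPM in nicd explants, against 0.17 and 0.502 CPM (log2 fold change 4.06 ± 0.99 SE, adjusted p = 0.00659). At st32 it had 262 counts over the 2 nicd libraries, against 2 counts over the uninjected ones, a ratio of 124 per total count (95% exact interval 33.9 to 1027, which covers counting error only). Suh-dbm explants of st32 held 39 counts of it, against the same 2 (log2 fold change 3.95 ± 1.24 SE, not called). Set against suh-dbm explants, nicd gave no wnt5a.S call at st32 without the experiment as a term.

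The wnt5b.L ligand was called at st32, with 15.8 and 3.65 CPM in nicd explants, against 0.19 and 0.386 CPM in uninjected ones (log2 fold change 5.12 ± 0.86 SE, adjusted p = 0.000208). The wnt11.L ligand had 18 and 2.43 CPM in nicd explants of st32 and no count in the uninjected ones, at least 289-fold higher when the floor is 3 counts over the group. Outside nicd explants it reached 10 counts only in suh-dbm plus dnmcidas experiment 1 of st32, with 25. It thus met the count rule for members only with nicd libraries counted, and its call is no separate support for a rise of these genes. The wnt11.L call (adjusted p = 0.00619) was absent with DESeq2 (adjusted p = 0.59). The wnt9b.2.L ligand had 3.51 and 10.1 CPM in nicd explants of st25, against 0.262 and 0.319 CPM (log2 fold change 4.53 ± 1.46 SE, adjusted p = 0.0426). At st32 it had 19.9 and 6.73 CPM, against 0.778 and 0.0386 CPM, and missed the threshold (adjusted p = 0.0503, or 0.0123 with the experiment as a term). At st16 the calls were other ligands. The wnt2b.L ligand had 1.35 and 3.57 CPM in nicd explants, against 0.0503 and 0.189 CPM (log2 fold change 4.34 ± 0.98 SE, adjusted p = 0.00576). The wnt11b.L ligand fell, to 1.42 and 1.67 CPM in nicd explants, against 39.8 and 9.89 CPM (log2 fold change -4.11 ± 0.87 SE, adjusted p = 0.00259). It was also below the uninjected libraries in suh-dbm explants of st16, at 6.07 and 7.52 CPM (log2 fold change -1.99 ± 0.79 SE), where it was not called.

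Of the 11 antagonist copies tested, 2 were called with nicd at st16, both higher, where 2.71% of all genes were called higher. Of the 3 R-spondin copies, 1 was called at st32, higher, where 1.78% of all genes were. The sfrp2.S copy had 94.4 and 161 CPM in nicd explants of st16, against 18.3 and 21.9 CPM in uninjected ones (log2 fold change 2.61 ± 0.77 SE, adjusted p = 0.0291). Those nicd values lay near the 88.2 and 109 CPM of uninjected explants at st10.5. The dkk3.L copy was called at st16 on 8 counts in all in nicd explants and none in uninjected ones, at least 5.44-fold higher. Its levels were also above those uninjected libraries in the other injected groups of st16, at 0.161 and 0.153 CPM with suh-dbm and 0.0621 and 0.177 CPM with the foxa1 morpholino. The rspo3.L R-spondin had 8.08 and 0.81 CPM in nicd explants of st32, against 0.038 and 0.0772 CPM (log2 fold change 6.28 ± 1.59 SE, adjusted p = 0.014). The nicd library of experiment 1 was far above that of experiment 2, and both were above the uninjected ones.

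The target genes were called only through sp5l.S. At st16 it had 1.79 and 1.67 CPM in nicd explants, against 0.0805 and 0.154 CPM in uninjected ones (log2 fold change 3.86 ± 0.97 SE, adjusted p = 0.0134). At st25 it had 74 counts over the 2 nicd libraries and none in uninjected ones, at least 36.3-fold higher. Of these counts, 66 were in experiment 1 and 8 in experiment 2. The sp5l.L copy did not pass at these stages (adjusted p = 0.517 and 0.635), nor did sp5.L (0.315 and 0.974), which had no count in either group at st32. With nicd, sp5l.L had 103 and 48 counts at st16 (totals 43.6 and 33.6 M), against 90 and 40 (99.4 and 58.3 M) in uninjected libraries. At st25 it had 10 and 2 counts (33.9 and 39.9 M), against 27 and 14 (64.8 and 43.8 M). Scaled to these totals, sp5l.L was higher with nicd at st16 and lower at st25 in both experiments. The axin2.S copy had 0.0917 and 1.13 CPM in nicd explants of st16, against 1.59 and 1.54 CPM, and 0.589 and 3.4 CPM, against 4.45 and 8.53 CPM, at st25. Both nicd libraries were the lower ones, and neither difference passed (adjusted p = 0.457 and 0.31). At st32 the order was the other way round, with 11.5 and 4.46 CPM in nicd explants, against 0.664 and 0.772 CPM (log2 fold change 3.46 ± 1.08 SE, adjusted p = 0.0587, or 0.043 with the experiment as a term).

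Many of these calls were lost when 1 library was left out. Each such refit leaves 1 library in a group, so a lost call does not show that the library left out decided it. At st16, 3, 4, 4 and 6 of the 8 calls remained without the uninjected library of experiment 1, the nicd library of experiment 1, the uninjected library of experiment 2 and the nicd library of experiment 2, and fzd7.L and fzd7.S held each time. At st25 the same 4 libraries left out in the same order kept 3, 4, 4 and 5 of the 8 calls, and fzd7.S held each time. At st32 they kept 2, 4, 4 and 6 of the 7 calls, and wnt5a.S and wnt5b.L held each time. The calls lost without nicd experiment 2 were dkk3.L and sfrp2.S at st16, wnt4.S, wnt5a.L and wnt9b.2.L at st25, and fzd7.S at st32. Of these, sfrp2.S at st16 and wnt5a.L and wnt9b.2.L at st25 were lost in every refit, whichever library was left out. At st32 rspo3.L and wnt5a.L were kept only without nicd experiment 2. The wnt11b.L call at st16 was lost without uninjected experiment 1 and without nicd experiment 1.

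**Figure D2:**
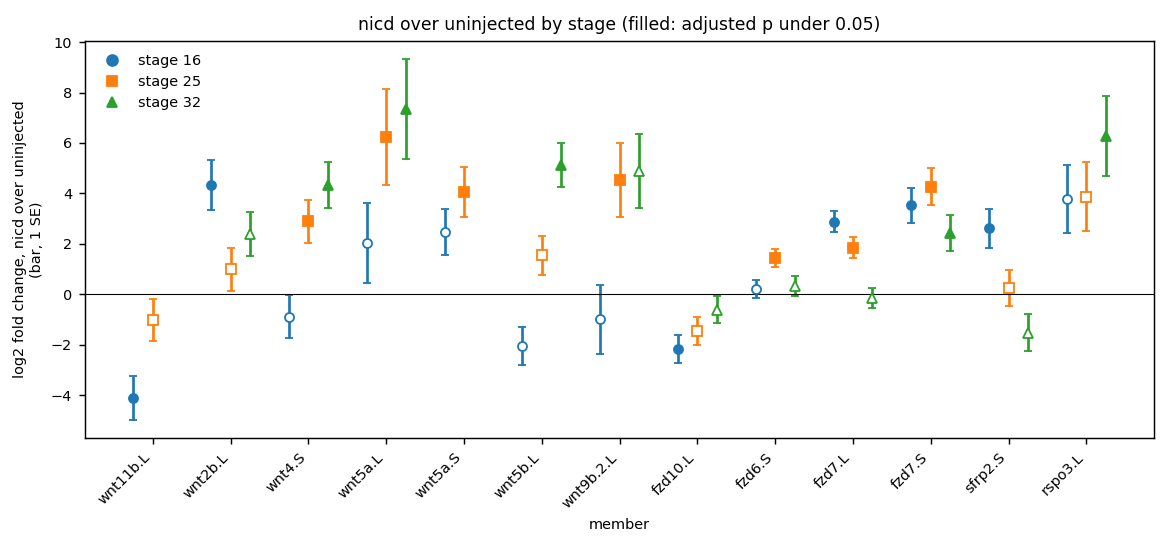
Fitted log2 fold change of nicd over uninjected explants at st16, st25 and st32 for members called at any, except dkk3.L, sp5l.S and wnt11.L. Bars are 1 SE, and filled symbols mark an adjusted p under 0.05. Values from groups with 3 counts or fewer are left out. The wnt4.S, wnt5a.L and wnt5b.L values are higher at st32 than at st16, and those of fzd7.L are lower, at 2.88 at st16.

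For 3 members the nicd effect differed between st32 and st16 by a test of the difference itself (5.17% of members, against 1.26% of all genes). Some members without counts in several of the groups had too large an SE to be called by this test, such as wnt11.L (8.39 ± 21188.56 SE). The log2 fold change of wnt4.S was higher at st32 than at st16 (difference 5.23 ± 1.23 SE, adjusted p = 0.03), as was that of wnt5b.L (7.18 ± 1.14 SE, adjusted p = 0.00172). The wnt5b.L effect changed sign, being lower with nicd at st16 and higher at st32 in both experiments. This ligand was also higher with nicd at st10.5, with 13.2 and 17.1 CPM, against 6.08 and 3.4 CPM, and was not called there. At st16 wnt4.S was lower with nicd in experiment 1 only. The fzd7.L effect was smaller at st32 (-3.03 ± 0.58 SE, adjusted p = 0.00795), with 3.32 and 4.86 CPM in nicd explants of st32, against 4.18 and 4.83 CPM in uninjected ones. With the experiment as a term sfrp2.S passed as well (adjusted p = 0.014, against 0.0515 without it). Of the uninjected and nicd libraries of both stages, each left out in turn, the wnt5b.L difference passed in every refit. The fzd7.L difference was lost without uninjected st16 experiment 1 and without nicd st32 experiment 1, and the wnt4.S difference held in 2 refits only, those without nicd experiment 2 of either stage. The plot of fold changes by stage shows these members.

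With suh-dbm plus dnmcidas, against Notch output and multicilin, the calls were of fzd6.S, fzd7.L, fzd7.S, sfrp5.S and dkk3.L. No member was called at st10.5 (0.0126% of all genes were called; edgeR's quasi-likelihood test, no member with an unadjusted p under 0.05, and none called by DESeq2). At st16, 1 member was called (1.72%, against 4.12% of all genes), as higher, where 0.398% of all genes were called higher and 3.72% lower. At st25, 4 were (6.9%, against 5.59%), 3 higher and 1 lower, where 1.34% of all genes were called higher and 4.26% lower. At st32, 2 were (3.45%, against 2.74%), both higher, where 0.442% of all genes were called higher and 2.3% lower. The shares called in either direction lay near those of all genes. The median log2 fold change of the members was -0.06, -0.23 and 0.42 at st16, st25 and st32, or 0.06, -0.22 and 0.43 with members at their bounds. That of all genes was -0.02, 0.01 and 0.00.

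The fzd7.S copy had 33.1 and 18 CPM in suh-dbm plus dnmcidas explants of st25, against 0.71 and 0.958 CPM in uninjected ones, and 25.8 and 14.2 CPM at st32, against 0.38 and 1.62 CPM. The groups were far apart at both stages, and these calls held with any library left out (log2 fold changes 4.69 ± 0.74 and 4.28 ± 0.74 SE, adjusted p = 0.000107 and 0.000585). The fzd7.L copy had 21 and 18.2 CPM, against 2.93 and 4.93 CPM, at st25 (log2 fold change 2.07 ± 0.42 SE, adjusted p = 0.00201). The fzd6.S copy had 4.29 and 5.56 CPM at st25, against 1.9 and 1.6 CPM (log2 fold change 1.24 ± 0.37 SE, adjusted p = 0.0496), and 2.99 and 2.49 CPM at st32, against 1.01 and 0.463 CPM (log2 fold change 1.68 ± 0.39 SE, adjusted p = 0.0112). The other injected groups of st25 also lay above the uninjected libraries for fzd6.S. It had 2.59 and 5.52 CPM with suh-dbm alone and 2.01 and 2.7 CPM with the foxa1 morpholino, neither called. The sfrp5.S antagonist fell at st25, to 0.55 and 0.92 CPM, against 12.4 and 11.8 CPM in uninjected explants (log2 fold change -4.29 ± 1.02 SE, adjusted p = 0.00949). The injected libraries were far below the uninjected ones. The ligand wnt5b.L and the antagonist dkk1.L passed at this stage only with the experiment as a term (adjusted p = 0.0457 and 0.0473, higher and lower with the injection). The st16 call was dkk3.L, with 22 counts in suh-dbm plus dnmcidas explants and none in uninjected ones, at least 14.1-fold higher. The other injected groups of st16 also lay above the uninjected libraries for dkk3.L.

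Multiciliated markers were low in these explants, at 7.03 to 40.3 CPM over the 6 libraries of st16 to st32, against 583 to 878 CPM in uninjected ones, and ionocyte markers were at 2621 to 4998 CPM, against 643 to 2108 CPM. Of the 13 multiciliated copies, 11, 10 and 9 were lower at these stages. No ionocyte copy of 13 was called (edgeR's quasi-likelihood test; 5, 1 and 2 copies had an unadjusted p under 0.05, and DESeq2 called 0). Neural markers summed to 159 and 182 CPM at st25, against 67 and 111 CPM, with 1 copy of 12 higher (sox3.S). The part of these marker differences in the Wnt results was not tested. Of the 4 calls at st25, 2, 2, 3 and 2 remained without uninjected experiment 1, suh-dbm plus dnmcidas experiment 1, uninjected experiment 2 and suh-dbm plus dnmcidas experiment 2. The fzd6.S call at st25 was lost in all 4 refits, and at st32 without suh-dbm plus dnmcidas experiment 1 and without uninjected experiment 2. The sfrp5.S call was lost without either injected library, the fzd7.L call without uninjected experiment 1, and the dkk3.L call without either uninjected library. With the experiment as a term at each stage, added after seeing the data, 5, 18 and 5 members were called at st16, st25 and st32, the 18 being 7 higher and 11 lower. The authors' deposited tables listed 3 members lower at st16 (7.89%, against 8.17% of genes), 3 higher and 10 lower at st25 (28.3%, against 15.4%), and 4 higher at st32 (9.3%, against 5.71%). The st32 and st16 effects of this injection gave no call for their difference (0.243% of all genes called; edgeR's quasi-likelihood test, 10 members at an unadjusted p under 0.05, and 1 called by DESeq2, fzd7.S). Some members without counts in several of the groups, such as wnt11.L (7.17 ± 25184.13 SE), could not be called by that test.

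Set against suh-dbm alone, which lacks dnmcidas, no member was called at st10.5 (0.00632% of all genes called) or st16 (3.24%), with 4 and 5 members at an unadjusted p under 0.05 in edgeR's quasi-likelihood test and 0 and 2 called by DESeq2. The labels name no filler mRNA for suh-dbm alone, so dnmcidas and the larger amount of injected mRNA cannot be told apart. At st25, 3 were called (5.17%, against 6% of all genes), and at st32, 2 (3.45%, against 2.92%), all higher. Among all genes, 2.09% and 0.6% were called higher at these stages. The members called were fzd7.L and fzd7.S at st25, fzd7.S at st32 and wnt5b.L at both. In suh-dbm plus dnmcidas explants wnt5b.L had 1.17 and 2.26 CPM at st25, against 0.0529 and 0.192 CPM with suh-dbm alone, and 2.21 and 1.69 CPM at st32, against 0.134 and 0.0987 CPM. The groups did not overlap (log2 fold changes 3.53 ± 0.87 and 3.87 ± 0.85 SE, adjusted p = 0.0122 and 0.00668). For fzd7.S the suh-dbm values were 1.54 and 0.549 CPM at st25 and 0.358 and 0.855 CPM at st32, and its log2 fold changes were 4.31 ± 0.73 and 4.84 ± 0.75 SE (adjusted p = 0.000246 and 0.000154). The wnt5b.L calls were each lost without 2 of the libraries: suh-dbm experiment 1 or suh-dbm plus dnmcidas experiment 2 at st25, and either suh-dbm library at st32. With the experiment as a term, 6 members were called at st25, 3 in each direction.

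**Figure D3:**
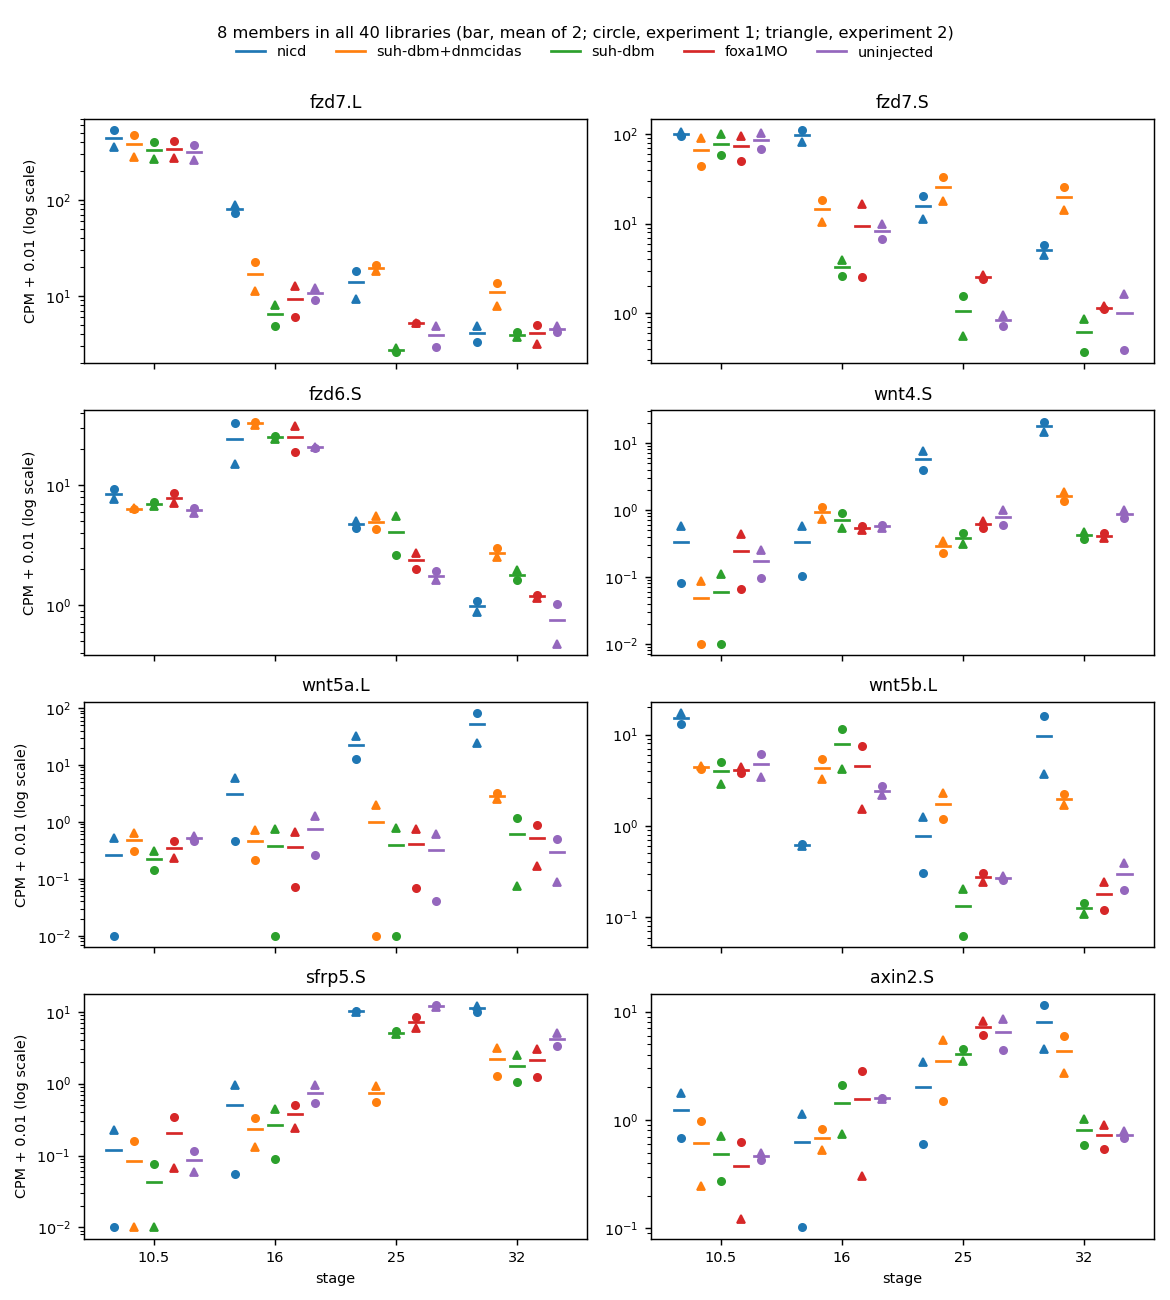
Level of 8 members in all 40 libraries by stage and group, as CPM plus 0.01 on a log axis, with circles for experiment 1, triangles for experiment 2 and bars for the means. At st25 and st32 the fzd7.S values of nicd explants (4.43 to 20.1 CPM) and of suh-dbm plus dnmcidas explants (14.2 to 33.1 CPM) all lie above those of uninjected explants (0.38 to 1.62 CPM).

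With suh-dbm alone no member was called against uninjected explants at any stage, where 0.00316%, 0.00316%, 0% and 0% of all genes passed, in stage order (edgeR's quasi-likelihood test; 0, 5, 4 and 3 members had an unadjusted p under 0.05, and DESeq2 called none). The dkk1.S antagonist was the member with the smallest unadjusted p at st16, at 0.0803 and 0.245 CPM in suh-dbm explants, against 3.64 and 2.02 CPM in uninjected ones (log2 fold change -4.15 ± 1.08 SE, adjusted p = 1). At st25 it had 3.02 and 8.52 CPM, against 14.7 and 27.8 CPM (log2 fold change -1.88 ± 0.86 SE, adjusted p = 1). The suh-dbm libraries were the lower ones at both stages, and neither difference passed. The fzd6.S receptor copy had 2.59 and 5.52 CPM in suh-dbm explants of st25, against 1.9 and 1.6 CPM (adjusted p = 0.971). The wnt11b.L ligand had 6.07 and 7.52 CPM at st16, against 39.8 and 9.89 CPM. At st25 it had 0.106 and 0.165 CPM, against 1.73 and 0.867 CPM. At st16 dkk3.L had 0.161 and 0.153 CPM, against 0 and 0 CPM. At st32 wnt5a.S had 0.737 and 0.0987 CPM, against 0.038 and 0 CPM. These differences did not pass either. The mean over st16, st25 and st32 gave no call either (0.0822% of all genes called; 5 members at an unadjusted p under 0.05, and DESeq2 called 2). Some members without counts in several of the groups, such as wnt11b.L (log2 fold change -1.74 ± 3986.43 SE), could not be called for that mean. For that mean dkk1.S had a log2 fold change of -2.59 ± 0.55 SE (adjusted p = 0.0621), and it passed with the experiment as a term (adjusted p = 0.0244). The authors' deposited tables listed 1 member lower at st16 (2.08%, against 0.0547% of genes) and 3 lower at st25 (10%, against 1.55%).

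The foxa1 morpholino likewise gave no call at any stage, where 0.0158%, 0.0442%, 0.0284% and 0.0126% of all genes were called, at st16 0.0411% as higher (edgeR's quasi-likelihood test; 0, 3, 2 and 0 members had an unadjusted p under 0.05, and DESeq2 called none). Its mean over st16 to st32 gave none either (0.626% of all genes; 3 members at an unadjusted p under 0.05, and none by DESeq2). Some members without counts in several of the groups, such as wnt11b.L (log2 fold change -1.17 ± 3250.08 SE), could not be called for this mean. The fzd7.S copy had 2.42 and 2.68 CPM in foxa1 morpholino explants of st25, against 0.71 and 0.958 CPM in uninjected ones, without overlap (log2 fold change 1.64 ± 0.69 SE, adjusted p = 1). At st25 wnt11b.L had 0.148 and 0.309 CPM, against 1.73 and 0.867 CPM (log2 fold change -2.49 ± 0.90 SE), and was not called. At st16 dkk3.L had 0.0621 and 0.177 CPM, against 0 and 0 CPM, and was not called. The sp5l.S copy had 0.404 and 0.912 CPM at st16, against 0.0805 and 0.154 CPM (adjusted p = 1, or 0.0269 with the experiment as a term at each stage). The authors' deposited tables for the morpholino listed no member. With 2 libraries a group these counts of 0 do not show that the genes behaved alike.

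**Figure D4:**
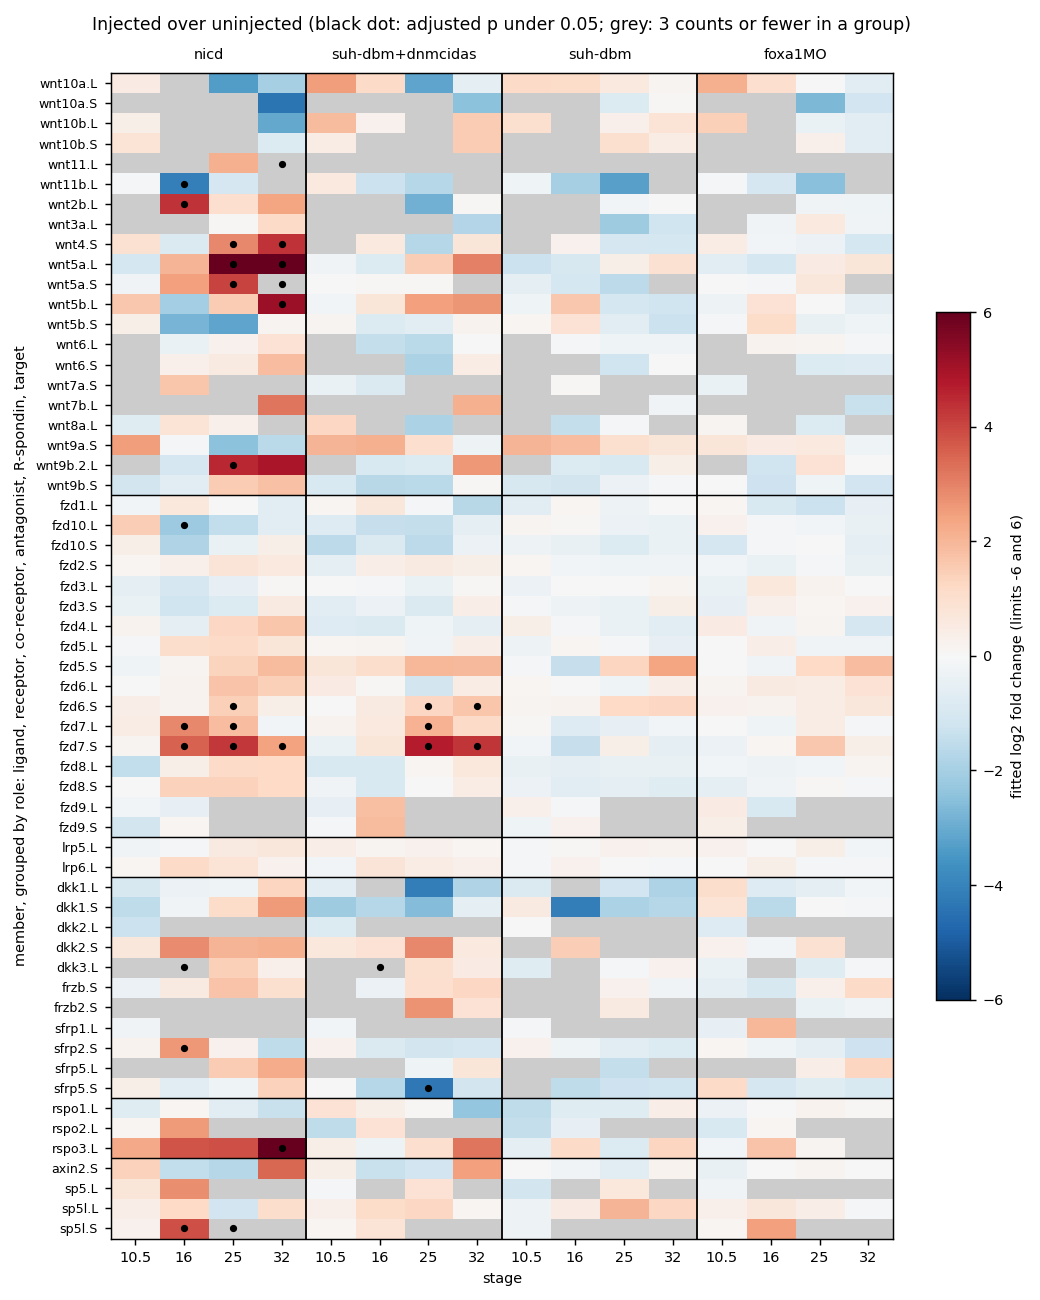
Fitted log2 fold change of each of the 58 members tested (rows, by role) in each injected group over uninjected explants at st10.5, st16, st25 and st32 (columns), with black dots for an adjusted p under 0.05 and grey for groups with 3 counts or fewer. Dots stand in the nicd columns, 8, 8 and 7 at st16, st25 and st32, and in the suh-dbm plus dnmcidas columns, 1, 4 and 2, and in no other.

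The direct comparison of nicd with suh-dbm explants, gain against loss of Notch output, gave more: 11 members at st16 (19%, against 12.7% of all genes; 8 higher with nicd and 3 lower), 17 at st25 (29.3%, against 18.7%; 15 higher, 2 lower) and 12 at st32 (20.7%, against 10.9%; all higher). Among all genes, 5.35%, 8.84% and 4.02% were called higher with nicd at these stages, and 7.36%, 9.88% and 6.91% lower. The comparison uses the same nicd libraries as above. Among genes not called against uninjected explants, dkk1.S had 1.38 and 3.93 CPM in nicd explants of st16, against 0.0803 and 0.245 CPM with suh-dbm (log2 fold change 3.95 ± 1.08 SE, adjusted p = 0.0152). At st25 it had 42.3 and 46.7 CPM, against 3.02 and 8.52 CPM (log2 fold change 2.96 ± 0.90 SE, adjusted p = 0.0209). At st32 it had 28.3 and 5.24 CPM, against 1.36 and 0.329 CPM (log2 fold change 4.28 ± 0.97 SE, adjusted p = 0.00347). The nicd libraries were above the suh-dbm ones at all 3 stages.

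Receptors called here and not against uninjected explants included fzd8.S at st16, with 208 and 229 CPM in nicd explants, against 45.2 and 66.3 CPM with suh-dbm (log2 fold change 1.99 ± 0.66 SE, adjusted p = 0.0477). At st25, fzd6.L had 287 and 291 CPM, against 45.6 and 102 CPM (log2 fold change 1.97 ± 0.63 SE, adjusted p = 0.0295). The fzd4.L copy had 13 and 12.9 CPM, against 5.06 and 3.32 CPM, at st25 and 21.6 and 20.3 CPM, against 3.66 and 4.37 CPM, at st32 (log2 fold changes 1.61 ± 0.54 and 2.33 ± 0.55 SE, adjusted p = 0.0376 and 0.00509). The fzd8.S call at st16 and the fzd4.L call at st25 were absent in all 4 refits that left out a library. The axin2.S target had 11.5 and 4.46 CPM in nicd explants of st32, against 0.581 and 1.02 CPM with suh-dbm (log2 fold change 3.26 ± 1.06 SE, adjusted p = 0.0472).

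The lower members were ligands and fzd10.L. At st16, wnt5b.L had 0.619 and 0.595 CPM in nicd explants, against 11.4 and 4.22 CPM with suh-dbm (log2 fold change -3.70 ± 0.79 SE, adjusted p = 0.00217), and wnt5b.S fell with it (adjusted p = 0.0384). At st25 the order of wnt5b.L was the other way round, with 0.295 and 1.23 CPM, against 0.0529 and 0.192 CPM (log2 fold change 2.61 ± 0.87 SE, adjusted p = 0.0352). At st25, wnt10a.L had 0.0589 and 0.175 CPM in nicd explants, against 2.54 and 1.04 CPM (log2 fold change -3.92 ± 1.23 SE, adjusted p = 0.0265). The wnt10b.S ligand had no count in nicd explants there and 36 counts with suh-dbm, at least 12-fold lower. Among the higher members of st32, wnt11.L was called by edgeR's quasi-likelihood test but not by DESeq2. It met the count rule for members only with nicd libraries counted. In this comparison 3 calls held at each stage with any library left out: fzd7.L, fzd7.S and wnt2b.L at st16, fzd7.L, fzd7.S and wnt5a.S at st25, and wnt11.L, wnt4.S and wnt5b.L at st32. Without suh-dbm experiment 1, nicd experiment 1, suh-dbm experiment 2 and nicd experiment 2, 4, 8, 8 and 6 of the 11 calls of st16 remained, 6, 7, 8 and 8 of the 17 of st25, and 4, 5, 5 and 9 of the 12 of st32. The dkk1.S call was absent in 3 of the 4 refits at st16 and st25 and in 2 at st32, and the axin2.S call in 3.

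The .L and .S copies of a gene were not always called together. Of the 16 genes with both copies tested, the fitted fold changes of nicd over uninjected explants had the same sign in 10 at st16 and in 11 at each of st25 and st32. Over all injected groups and stages, set against uninjected explants, that number lay between 6 (suh-dbm at st10.5 and st16) and 13 (suh-dbm at st32). Both copies were called for fzd7 at st16 and st25 and for wnt5a at st25 and st32. A single copy was called for fzd10 and sp5l at st16, fzd6 and sp5l at st25, and fzd7 and wnt5b at st32. In no comparison were both copies called in opposite directions. The counting of reads that match both copies is not given in the sources used here, so a split of reads between copies may enter these values. When the copies were summed, the suh-dbm plus dnmcidas difference of fzd6 at st25 took the other sign (log2 fold change -0.96, adjusted p = 0.408). There fzd6.L had 712 and 1746 counts in injected libraries (totals 27.3 and 23.9 M), against 4759 and 4649 in uninjected ones (64.8 and 43.8 M). The fzd6.S copy had 117 and 133 counts, against 123 and 70.

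A further list of genes of the pathway, covering secretion, other receptors, negative regulators and nuclear factors, had 72 copies tested. With nicd, 6 rose and 2 fell at st16, where 2.71% of all genes rose and 7.22% fell. At st25, 11 rose and 3 fell (5.21% and 7.1% of all genes), and at st32, 10 rose and 1 fell (1.78% and 4.05%). With suh-dbm plus dnmcidas 1 fell at st16 (3.72% of all genes), 1 rose and 2 fell at st25 (1.34% and 4.26%), and 1 fell at st32 (2.3%). The repressor tcf7l1.L had 278 and 158 CPM in nicd explants of st16, against 55.4 and 56.9 CPM in uninjected ones (log2 fold change 1.92 ± 0.32 SE, adjusted p = 0.000174). The wls.L copy, the carrier that Wnt ligands need for secretion, had 39.3 and 46.5 CPM at st32, against 17.3 and 22.5 CPM (log2 fold change 1.10 ± 0.22 SE, adjusted p = 0.00198), and was also higher at st16 and st25 (adjusted p = 0.0014 and 0.00604). The receptor genes ror1.L and ror1.S, which bind Wnt5a, were higher at st32, ror1.L with 48.2 and 26.7 CPM, against 2.66 and 4.02 CPM (log2 fold change 3.49 ± 0.93 SE, adjusted p = 0.021). The notum.L copy, whose product inactivates Wnt ligands by removing their lipid, had 5.01 and 3.33 CPM in nicd explants of st25, against 0.309 and 0.228 CPM (log2 fold change 3.93 ± 0.80 SE, adjusted p = 0.00116). The Dkk receptor gene kremen1.S fell at st32, to 0.325 and 0.216 CPM in nicd explants, against 7.67 and 7.61 CPM (log2 fold change -4.81 ± 1.03 SE, adjusted p = 0.00352). With suh-dbm plus dnmcidas, the growth regulator myc.S, a Wnt target in several tissues, had 22.8 and 27.7 CPM at st16, against 102 and 71.5 CPM (log2 fold change -1.93 ± 0.45 SE, adjusted p = 0.00825).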

How the data were processed

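Bulk poly-A RNA was sequenced as 40 libraries, 2 in each of 20 groups. The authors deposited whole-number read counts per gene for each library, made with STAR 2.6.0b-1 and featureCounts 1.6.3 per the submitters' processing notes, which also name FastQC 0.11.5. The library kit does not keep strand per the labels, so overlapping and antisense genes cannot be told apart. The genome build and the handling of reads that match several places are not given in the sources used here. The authors also deposited tables of log2 fold changes from DESeq2 1.22.1, per the submitters' processing notes, and of each adjusted p-value in the same deposited tables.

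From the counts, 1 model over all libraries was fitted with edgeR 4.0.16 in R 4.3.3 (TMM scaling, quasi-likelihood F test, genes filtered at a minimum count of 10, 31648 tested), p-values were adjusted by Benjamini-Hochberg over all genes, and an adjusted p under 0.05 was called. The fit has 20 residual degrees of freedom, and all groups share its estimate of the spread. SEs were computed from the fold change and the F statistic. CPM used the deposited totals, 20.2 to 99.4 M counts a library. Alternatives were median-ratio (RLE) size factors, no filter beyond 1 count, DESeq2 1.42.0, the experiment as a block, summed L and S copies and leaving out each library, and, chosen after seeing the data, a block at each stage and the dataset number of the file header as a term. In experiment 1 that number was 630 for uninjected libraries of st10.5 and st16 and 604 for the injected ones. It thus partly coincides with the injection at these stages, and what it stands for is not given.

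Experiment numbers pair the samples, since the labels give different females for the 2 experiments. Deviations of same-numbered libraries of 1 stage from their group means correlated at 0.0652 to 0.841 (median 0.609, 40 pairs of groups, 14842 genes). Between groups of different stages the correlations were lower, at -0.037 to 0.48 (median 0.127, 150 pairs). The members and lists were chosen with earlier results of these data known. The text names axin2 and sp5 copies, called members with a mean of at least 1 CPM and the same sign in both experiments by size of change, the highest members of each role in uninjected explants and the called pathway genes with the largest change. Others named for their values were chosen after those were seen. The fit was also run on simulated counts with known changes, drawn with the same spread for all genes and no effect of the experiment. That run does not check the fit under the pairing by experiment seen here.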

Additional observations from a re-analysis of the deposited data

Results flagged for a closer look

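A change of the nicd effect between st16 and st32 was called for 3 members in edgeR's quasi-likelihood model, which tested that change directly. For wnt4.S the difference in log2 fold change was 5.23 (adjusted p = 0.03), for wnt5b.L 7.18 (adjusted p = 0.00172) and for fzd7.L -3.03 (adjusted p = 0.00795). The log2 ratios of nicd over uninjected wnt4.S in experiments 1 and 2 were -2.30 and 0.06 at st16 and 4.67 and 3.83 at st32. Those of wnt5b.L were -2.13 and -1.80 at st16, and at st32 its levels were 15.8 and 3.65 CPM in nicd explants, against 0.19 and 0.386 CPM in uninjected ones. Those of fzd7.L were 2.93 and 2.83 at st16 and -0.39 and 0.04 at st32. With each of the 8 libraries left out in turn, the wnt5b.L call held each time, that of fzd7.L was lost without uninjected st16 experiment 1 or nicd st32 experiment 1, and that of wnt4.S was kept only without nicd experiment 2 of st16 or of st32.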

How the results depend on the processing

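The tallies of this paragraph cover 109 called results, of members with a mean of at least 1 CPM and the same sign in both experiments. Called members at lower levels are not in them, among them dkk2.L and sp5.L between st10.5 and st16, which DESeq2 also lost. Of the 109, the call was lost for 2 with DESeq2, 4 with RLE size factors and 3 without the filter. It was lost for 18 with summed L and S copies and 0 with the experiment as a block. With the header dataset number, added after seeing the data, 1 was lost. When 1 library was left out, which leaves 1 library in a group, many calls were lost. Over all pairs of a call and a refit, 0 reversed. Summing copies reversed fzd6.S in suh-dbm plus dnmcidas against uninjected explants at st25 (-0.96) and sp5l.S in nicd against suh-dbm explants at st25 (-0.30). At st25 sp5l.L had 10 and 2 counts with nicd (totals 33.9 and 39.9 M), against 56 and 56 with suh-dbm (37.8 and 36.4 M). The cause of the reversals was not tested.

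Counts of members called moved by over 1.5 times as follows. With the replicate block, nicd against uninjected gave 16 at st25 and 12 at st32, suh-dbm plus dnmcidas against suh-dbm 6 at st25, and the suh-dbm mean 1. With the block at each stage (added), nicd against uninjected gave 1, 17, 25 and 20 at st10.5, st16, st25 and st32, suh-dbm plus dnmcidas against uninjected 5, 18 and 5 at st16, st25 and st32, the foxa1 morpholino 1 at st16, suh-dbm plus dnmcidas against suh-dbm 4, 10 and 9, nicd against suh-dbm 19, 26 and 25, the step to st32 gave 12, the suh-dbm mean 3, and the stage differences 13 for nicd and 3 for suh-dbm plus dnmcidas. With DESeq2 the same order gave 13, 13 and 12 for nicd at st16, st25 and st32, 10 and 4 for suh-dbm plus dnmcidas at st25 and st32, 2 and 7 against suh-dbm at st16 and st25, 5 for the step to st32, 2 for the suh-dbm mean, and 6 and 1 for the stage differences. Without the filter the counts were 14 and 12 for nicd at st25 and st32, 8 and 5 for suh-dbm plus dnmcidas, 2, 6 and 4 against suh-dbm at st16, st25 and st32, 4 for the step to st32, 1 for the suh-dbm mean, and 7 and 1 for the stage differences. Counted as genes with a called copy, summed copies gave 1 for suh-dbm plus dnmcidas against uninjected at st32, against 2, and 1 and 1 for it against suh-dbm at st16 and st32, against 0 and 2. The header number (added) gave 1 for the suh-dbm mean and 5 for the nicd stage difference. The cause of these shifts was not tested.

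With 1 library left out the counts ranged over 3 to 6, 3 to 5 and 2 to 7 for nicd at st16, st25 and st32, 0 to 1, 2 to 3 and 1 to 2 for suh-dbm plus dnmcidas, 0 to 1, 2 to 3 and 1 to 2 for it against suh-dbm, 4 to 8, 6 to 10 and 5 to 11 for nicd against suh-dbm, 16 to 25, 7 to 15 and 0 to 1 for the stage steps, and 1 to 5 for the nicd stage difference, and stayed at 0 for the others. RLE scaling put the median of all genes at 0.00 and -0.04 for suh-dbm at st10.5 and st16 and at 0.00 for nicd at st10.5, against -0.14, -0.11 and -0.10 with TMM.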
